A study of Mus musculus with 5 samples.

Results

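The genes followed here are the core of the transforming growth factor beta (TGF-beta) signalling pathway in hematopoietic stem cells (HSCs): the ligand gene Tgfb1, the receptor genes Tgfbr1 and Tgfbr2, the signal transducers Smad2, Smad3 and Smad4, and the inhibitors Smad7, Ski and Skil. They were chosen by symbol for their place in the pathway, and all 9 were found among the 24046 gene symbols measured. Bulk RNA sequencing was performed on HSCs that had lost the RNA-binding protein SYNCRIP and on HSCs that had kept it. WT libraries (WT 1, WT 2 and WT 3) came from Syncrip flox/flox, Mx1 Cre- marrow, and KO libraries (KO 2 and KO 3) from Syncrip flox/flox, Mx1 Cre+ marrow, so that controls carried the floxed alleles as well. Marrow of donors aged 6 to 8 weeks was engrafted into CD45.1 congenic recipients, and both groups received polyinosinic:polycytidylic acid (pIpC) at 10 mg/kg on 2 days, starting 6 weeks after transplantation. Cells were sorted as CD45.2+, Lin-, Sca1+, cKit+, CD150+ and CD48- at 9 weeks after transplantation and 3 weeks after pIpC. The Mx1 promoter drives Cre in interferon-responsive cells, which are not limited to HSCs. The labels did not say whether each library came from a separate animal, so p-values measure only the spread between these 5 samples.

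TGF-beta is secreted in a latent form and, once released, is bound by the type II receptor TGFBR2, which recruits and phosphorylates the type I receptor TGFBR1. The activated type I receptor phosphorylates SMAD2 and SMAD3, which join SMAD4 and enter the nucleus to regulate transcription, while SMAD7 blocks the receptor and SKI and SKIL (also called SnoN) repress SMAD-bound genes. In the bone marrow the pathway is known for holding HSCs in quiescence, and megakaryocytes are a known source of the ligand.

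The promoters of 3 genes are shown, those whose groups did not overlap among the members whose promoter was examined. Tgfb1 and Ski had both KO values above all WT values, and Tgfbr1 had both below. Each sequence is the 250 bases before the RefSeq start of the gene on the mouse assembly GRCm38.p6, written 5′ to 3′ on the strand of the gene. The last 57 bases of the Ski sequence lie within the longer span that GENCODE M21 gives this gene. They lie at chr7:25686752-25687001 on the + strand for Tgfb1, chr4:155222536-155222785 on the - strand for Ski and chr4:47352972-47353221 on the + strand for Tgfbr1. Capitals mark GC boxes, searched as GGGCGG on either strand and therefore also seen as CCGCCC.
Tgfb1: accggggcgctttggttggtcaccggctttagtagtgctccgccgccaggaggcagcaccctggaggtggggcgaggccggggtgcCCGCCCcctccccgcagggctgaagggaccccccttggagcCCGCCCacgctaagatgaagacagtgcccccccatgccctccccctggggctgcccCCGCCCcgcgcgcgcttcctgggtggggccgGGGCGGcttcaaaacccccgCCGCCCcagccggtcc
Ski: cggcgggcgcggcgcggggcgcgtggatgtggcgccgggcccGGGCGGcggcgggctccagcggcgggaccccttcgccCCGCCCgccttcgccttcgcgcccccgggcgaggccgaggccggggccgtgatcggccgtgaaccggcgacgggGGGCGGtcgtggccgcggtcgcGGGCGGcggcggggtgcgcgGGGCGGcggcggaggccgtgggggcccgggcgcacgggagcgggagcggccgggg
Tgfbr1: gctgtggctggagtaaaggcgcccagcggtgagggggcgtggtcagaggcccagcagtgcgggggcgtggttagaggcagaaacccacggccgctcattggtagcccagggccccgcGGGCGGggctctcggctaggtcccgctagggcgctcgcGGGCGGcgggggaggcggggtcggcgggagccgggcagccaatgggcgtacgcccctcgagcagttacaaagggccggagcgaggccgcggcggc

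The Tgfb1 sequence held 5 GC boxes, as did that of Ski, and that of Tgfbr1 held 2. GC made up 75.2% of the bases for Tgfb1, 87.6% for Ski and 74.8% for Tgfbr1, against a median of 52.4% over 32851 such promoter sequences. At least 1 GC box was present in 32.7% of those sequences. The short SMAD-binding motif CAGAC, searched on both strands and therefore also as GTCTG, was present in 42.2% of them and was not matched in these 3. A sequence was examined for 5 of the 9 genes. Smad2, Smad4 and Smad7 were left out of the search, and Skil had no sequence in the source used. That of Smad3 held 2 GC boxes and no SMAD motif. Those of Tgfbr2 and of a second Tgfbr1 start, which lies within the gene, held 1 SMAD motif each and no GC box. Per the GENCODE M21 annotation of GRCm38, Tgfb1 spans chr7:25687002-25705077, Tgfbr1 chr4:47353222-47414931, Tgfbr2 chr9:116084293-116175360, Smad3 chr9:63646767-63757994, Ski chr4:155154075-155222592 and Skil chr3:31095058-31122577, all as protein-coding genes.

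The libraries differed in ways that bear on every value that follows. Depth was 21748781 to 22779536 reads in the WT libraries, 18308876 in KO 2 and 12539599 in KO 3, and 14947 to 15740 genes had at least 1 read. Syncrip, which the Cre deletes, stood at 0.185 times its WT mean in the KO libraries, a log2 fold change of -2.43 with an adjusted p of 0.0352 by limma. The 4 genes of markers that the sort selects for (Ptprc, Ly6a, Kit and Slamf1) were detected in all 5 libraries, with Ptprc, the CD45 gene, at a mean of 4307 in WT and 1640 in KO and both KO values below all WT values. Cd48, whose protein the gate excludes, read 600.6 to 767.8 in WT, 459.5 in KO 2 and 191.4 in KO 3. Reads of 10 neutrophil and myeloid markers took 6.16% to 7.44% of each WT library, 5.46% of KO 2 and 2.64% of KO 3, with Mpo and Ngp the most abundant. KO 2 stood apart through fat cell transcripts: 8 adipocyte markers took 0.142% of its reads against at most 0.00214% in any other library, and Ucp1 and Cidea were at 0 in the other 4. The members' values are therefore given for each KO library, and calls are also given for the fits without KO 2 and without KO 3.

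No member passed an adjusted p of 0.05 in the KO against WT comparison by limma on log2(normalized read count + 1), where 1 of 13661 tested genes, or 0.00732%, did so; that gene was Syncrip. At an unadjusted p under 0.05 there were 5 of 9 members, beside 27.8% of all tested genes. In both KO libraries Tgfb1, Smad7 and Ski were above every WT library, whereas Tgfbr1, Smad2 and Skil were below every WT library, and Tgfbr2, Smad3 and Smad4 overlapped. Both KO values were above all WT values in 23.9% of tested genes and below in 23.2%, so that 3 of 9 members on each side stood near that background. The median log2 fold change of the members was 0.03, against 0.02 over all tested genes. All 9 members passed the filter on low values, which asked for 10 or more normalized reads in 2 or more libraries.

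**Figure D1:**
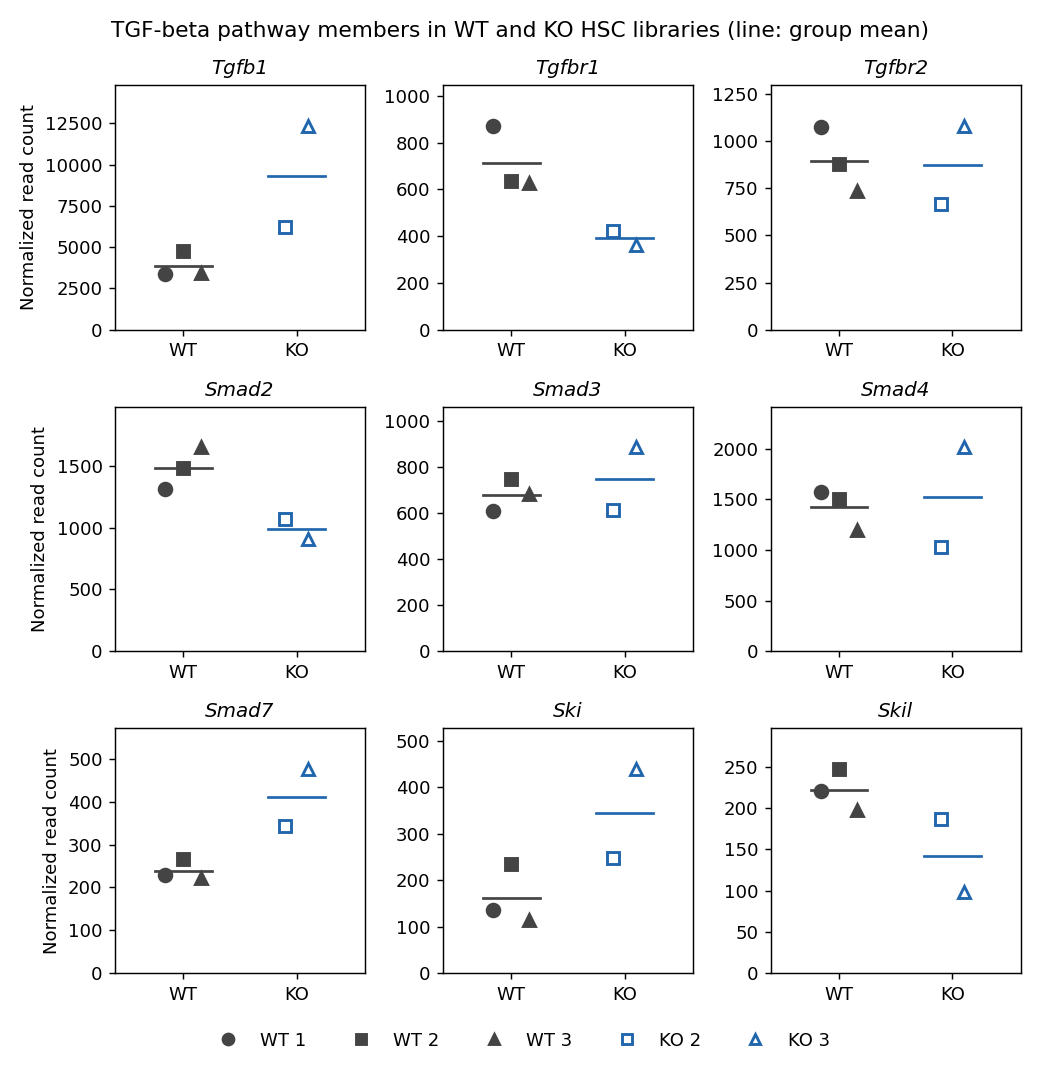
Normalized read counts of the 9 genes (y axes, each from 0) in the 3 WT libraries (filled symbols) and the 2 KO libraries (open symbols), with group means as lines. Tgfb1, Smad7 and Ski have both KO libraries above the WT range, Tgfbr1, Smad2 and Skil have both below it, and KO 3 lies farther from WT than KO 2 in each of these 6 genes.

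DESeq2 on the whole read counts recovered from the same table called 3 members at an adjusted p under 0.05. Tgfb1 was called higher, as were 9.54% of the 11837 genes to which DESeq2 gave an adjusted p, and Tgfbr1 and Smad2 were called lower, as were 9.81%. edgeR's quasi-likelihood test on the same reads called no member, with 5 at an unadjusted p under 0.05 beside 27.2% of all tested genes, and 2 genes in all. Without KO 2, limma called 6 members (Tgfb1, Smad7 and Ski higher; Tgfbr1, Smad2 and Skil lower), but 26.6% of all tested genes were then called in either direction. Without KO 3 it called no member, with 2 at an unadjusted p under 0.05 beside 14.6% of all tested genes, and in both of these fits the lone KO library is assumed to vary as the WT libraries do.

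Tgfb1, the ligand, had the largest fold change of the 9 with all 5 libraries. Ski was ahead without WT 2 (1.41 against 1.37 on the log2 scale), and Tgfbr1 was ahead in size without KO 3 (-0.74 against 0.71). WT 1, WT 2 and WT 3 gave normalized read counts of 3376, 4741 and 3409, and KO 2 and KO 3 gave 6214 and 12350. WT 2 was the highest WT library, the WT libraries spanned 0.49 on the log2 scale, KO 2 was above WT 2, and KO 3 was above KO 2. Group means were 3842 ± 779 for WT (SD, n = 3) and 9282 ± 4339 for KO (SD, n = 2), a ratio of 2.42. By limma, Tgfb1 had a log2 fold change of 1.21 with an SE of 0.30 and a 95% interval of 0.53 to 1.88 (adjusted p = 0.0818), with DESeq2 giving 1.27 (SE 0.32, adjusted p = 0.00212) and edgeR an adjusted p of 0.0926. The difference from the WT mean was 0.71 on the log2 scale with KO 2 alone (limma adjusted p = 0.251) and 1.70 with KO 3 alone (adjusted p = 0.00336). Across all alternatives the adjusted p of Tgfb1 ran from 0.00212 to 0.407.

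The summed level of megakaryocyte and platelet markers was also higher in both KO libraries than in any WT library. The 8 markers summed to 0.0359% to 0.0637% of reads in WT, 0.0671% in KO 2 and 0.161% in KO 3, and 7 of the 8 were highest in KO 3. Both KO values were above all WT values for 4 of them: Pf4, Gp1bb and Gp9, which encode a platelet chemokine and platelet adhesion receptor subunits, and Vwf, the von Willebrand factor gene. Vwf read 1210, 1934 and 1042 in WT 1 to WT 3 and 3120 and 7319 in KO 2 and KO 3, and Pf4 read 1566, 2119 and 1307 against 3305 and 5022. Gp6, the platelet collagen receptor gene, was at 0 in both KO libraries and at most 3.33 in WT. Several of these genes are also known to be transcribed in HSCs primed toward platelets, and the part of these markers in the Tgfb1 difference was not tested. In bulk RNA, more cells of a type and more RNA per cell cannot be told apart, nor can fewer cells and less RNA per cell.

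**Figure D2:**
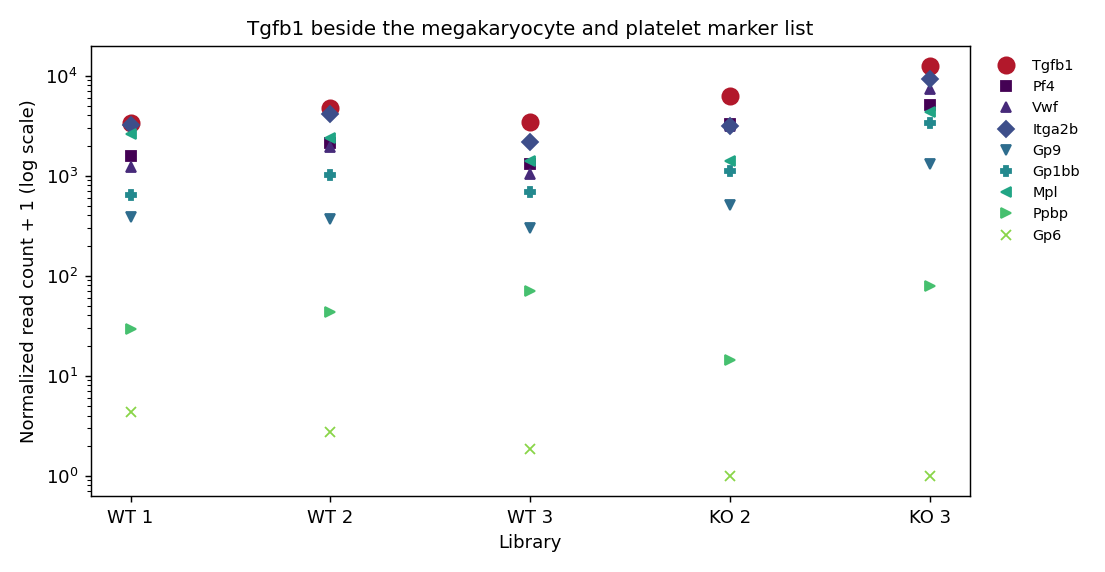
Normalized read count + 1 on a log axis (y) in each of the 5 libraries (x) for Tgfb1 (red circles) and the 8 megakaryocyte and platelet markers. Tgfb1 goes from 3376 to 4741 in WT to 6214 in KO 2 and 12350 in KO 3, 7 of the 8 markers are also highest in KO 3, and Gp6 is at 0 in both KO libraries.

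Among all tested genes, those whose profile over the 5 libraries was closest to that of Tgfb1 were 4930404N11Rik, Mir7654 and Tysnd1, at Euclidean distances of 0.10, 0.14 and 0.14 on the log2 scale. Tysnd1, a peroxisomal protease gene, read 1577, 2369 and 1747 in WT 1 to WT 3 and 2997 and 5599 in KO 2 and KO 3. The likeness is over 5 libraries only.

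Of the receptor genes, Tgfbr1 had groups that did not overlap and Tgfbr2 had groups that did. Tgfbr1, which encodes the type I receptor, read 872.5, 637.9 and 625.6 in WT 1 to WT 3, compared with 420.4 and 364.5 in KO 2 and KO 3. Both KO libraries were below every WT library and close to each other, and WT 1 was the highest. Group means were 712.0 ± 139 for WT (SD, n = 3) and 392.5 ± 39.6 for KO (SD, n = 2), a ratio of 0.551, and limma gave Tgfbr1 a log2 fold change of -0.84 with an SE of 0.25 and a 95% interval of -1.41 to -0.28 (adjusted p = 0.0929). DESeq2 gave -0.86 (SE 0.28, adjusted p = 0.0189), and the adjusted p ran from 0.0189 to 0.93 over the alternatives. With a linear trend on transcript GC content and length removed, limma gave -0.22 (DESeq2 adjusted p = 0.62) and the groups of Tgfbr1 overlapped. The log2 difference from the WT mean was -0.74 in KO 2 (limma adjusted p = 0.29 with KO 2 alone) and -0.95 in KO 3 (adjusted p = 0.0407 with KO 3 alone).

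Tgfbr2, the ligand-binding type II receptor gene, read 1073, 877.4 and 733.5 in WT 1 to WT 3 and 665.1 and 1080 in KO 2 and KO 3. KO 2 was the lowest library and KO 3 the highest, so the KO libraries spanned the whole WT range. By limma, Tgfbr2 had a log2 fold change of -0.06 with an SE of 0.27 and a 95% interval of -0.69 to 0.56 (adjusted p = 0.899). The ratio of Tgfbr2 to Tgfbr1, each per kilobase of transcript, was 0.875, 0.978 and 0.834 in WT 1 to WT 3, 1.13 in KO 2 and 2.11 in KO 3. With a linear trend on transcript GC content and length removed from each library, KO 2 lay within the WT range of this ratio (0.849, with WT at 0.84 to 0.961) and KO 3 was at 1.15. Such ratios were set on the uncorrected WT mean ratio, so only the differences between libraries carry the correction.

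Of the receptor-activated transducers, Smad2 had groups that did not overlap and Smad3 had groups that did. Smad2 read 1308, 1478 and 1647 in WT 1 to WT 3, compared with 1069 and 905.1 in KO 2 and KO 3. Both KO libraries were below the lowest WT library. Group means were 1478 ± 170 for WT (SD, n = 3) and 987.1 ± 116 for KO (SD, n = 2), a ratio of 0.668. For Smad2, limma gave a log2 fold change of -0.58 with an SE of 0.20 and a 95% interval of -1.03 to -0.13 (adjusted p = 0.116), and DESeq2 gave an adjusted p of 0.0464, within a range of 0.0464 to 0.835 over the alternatives. By limma, Smad2 was at -0.70 without KO 2 and -0.46 without KO 3. After removal of the GC content and length trend it was at -0.25 (DESeq2 adjusted p = 0.468), with both KO libraries still below all WT libraries.

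Smad3, the partner of Smad2 that binds DNA directly, read 609.4, 748.1 and 683.0 in WT 1 to WT 3 and 613.7 and 886.9 in KO 2 and KO 3. KO 2 lay within the WT range and KO 3 was above it. Its log2 fold change by limma was 0.12 with an SE of 0.24 and a 95% interval of -0.43 to 0.67 (adjusted p = 0.762). Per kilobase, the ratio of Smad3 to Smad2 was 0.659 to 0.804 in WT, 0.912 in KO 2 and 1.56 in KO 3, and with the trend removed 0.68 to 0.781 in WT, 0.682 in KO 2 and 0.926 in KO 3.

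Smad4, the common partner of the receptor-activated SMADs, read 1573, 1504 and 1199 in WT 1 to WT 3, 1031 in KO 2 and 2014 in KO 3. The KO libraries lay on opposite sides of the WT range, KO 2 below it and KO 3 above it. The group means therefore hide the spread: limma gave a log2 fold change of 0.03 with an SE of 0.29 and a 95% interval of -0.64 to 0.69 (adjusted p = 0.961), while the difference from the WT mean was -0.46 in KO 2 and 0.51 in KO 3. Smad4 was the only member with another annotated gene in its span, a processed pseudogene on the opposite strand that had no row among the measured symbols.

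Of the inhibitors, Smad7, which blocks the type I receptor and is itself a target of TGF-beta signalling, read 228.9, 266.4 and 221.1 in WT 1 to WT 3, compared with 344.4 and 476.9 in KO 2 and KO 3. Both KO libraries were above a narrow WT range. Smad7 averaged 238.8 ± 24.2 over WT (SD, n = 3) and 410.6 ± 93.7 over KO (SD, n = 2), a ratio of 1.72. Its log2 fold change by limma was 0.77 with an SE of 0.28 and a 95% interval of 0.12 to 1.41 (adjusted p = 0.131). DESeq2 gave an adjusted p of 0.0585, and the limma fold ran from 0.531 to 0.999 without 1 library. After removal of the GC content and length trend Smad7 was at 0.24 (DESeq2 adjusted p = 0.61), with both KO libraries still above all WT libraries.

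Ski and Skil encode related nuclear corepressors of SMAD complexes, and their values lay on opposite sides of WT. Ski read 135.7, 235.2 and 113.1 in WT 1 to WT 3, compared with 247.7 and 438.9 in KO 2 and KO 3. KO 2 was only just above WT 2, and the WT libraries spanned 1.05 on the log2 scale, the widest WT range of the 9 genes. Ski averaged 161.3 ± 65.0 over WT (SD, n = 3) and 343.3 ± 135 over KO (SD, n = 2). Its log2 fold change by limma was 1.10 with an SE of 0.42 and a 95% interval of 0.15 to 2.05 (adjusted p = 0.138), with a DESeq2 adjusted p of 0.0758 and a range of 0.0422 to 0.81 over the alternatives.

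Skil read 220.6, 247.3 and 197.1 in WT 1 to WT 3, compared with 186.1 and 98.7 in KO 2 and KO 3. KO 2 was just under WT 3, and KO 3, with 65 reads of this gene, was well under every other library. Skil averaged 221.7 ± 25.1 over WT (SD, n = 3) and 142.4 ± 61.8 over KO (SD, n = 2). For Skil, limma gave a log2 fold change of -0.70 with an SE of 0.37 and a 95% interval of -1.54 to 0.14 (adjusted p = 0.247), and DESeq2 gave an adjusted p of 0.271, within a range of 0.0499 to 0.95 over the alternatives. The ratio of Ski to Skil per kilobase of transcript was 0.748, 1.16 and 0.698 in WT 1 to WT 3, 1.62 in KO 2 and 5.41 in KO 3. As Ski was above and Skil below every WT library in KO, the position of this ratio was fixed by those values. With the GC content and length trend removed it was 0.754 to 0.947 in WT, 0.982 in KO 2 and 2.04 in KO 3.

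The members with higher KO values had transcripts richer in GC than those with lower KO values. Smad3, whose groups overlapped, had a higher GC content than Tgfb1. GC content of the longest annotated transcript was 52.5% for Tgfb1, 55.6% for Ski and 56.9% for Smad7, the genes with higher KO values, and 41.0% for Tgfbr1, 41.0% for Skil and 44.9% for Smad2, those with lower KO values. The genes that overlapped had 49.4% (Smad4), 49.6% (Tgfbr2) and 53.1% (Smad3), and the median over all tested genes was 49.9%. When a linear trend on GC content and log2 transcript length was removed from each library before the limma fit, the log2 fold change of Tgfb1 was 1.02 (SE 0.26) and that of Ski 0.66 (SE 0.36). Smad7 was then at 0.24 (SE 0.25), Tgfbr1 at -0.22 (SE 0.22), Smad2 at -0.25 (SE 0.18) and Skil at -0.08 (SE 0.34). Tgfbr1 and Skil then overlapped with WT, whereas Tgfb1, Ski and Smad7 stayed above all WT libraries and Smad2 below them, beside 17.2% of all genes above and 18.6% below on the same scale. limma called no member after this step, with 1 at an unadjusted p under 0.05, and 0 genes in all, with 2329 at an unadjusted p under 0.05. DESeq2 with the same trend as an offset called Tgfb1 alone of the 9 (log2 fold change 1.07, SE 0.28, adjusted p = 0.0077), beside 3.19% of genes called higher. The same removal took the log2 fold change of Syncrip, whose transcript has 37.0% GC, from -2.43 to -1.53 (limma adjusted p = 0.136), so it also lessened the difference in the deleted gene.

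**Figure D3:**
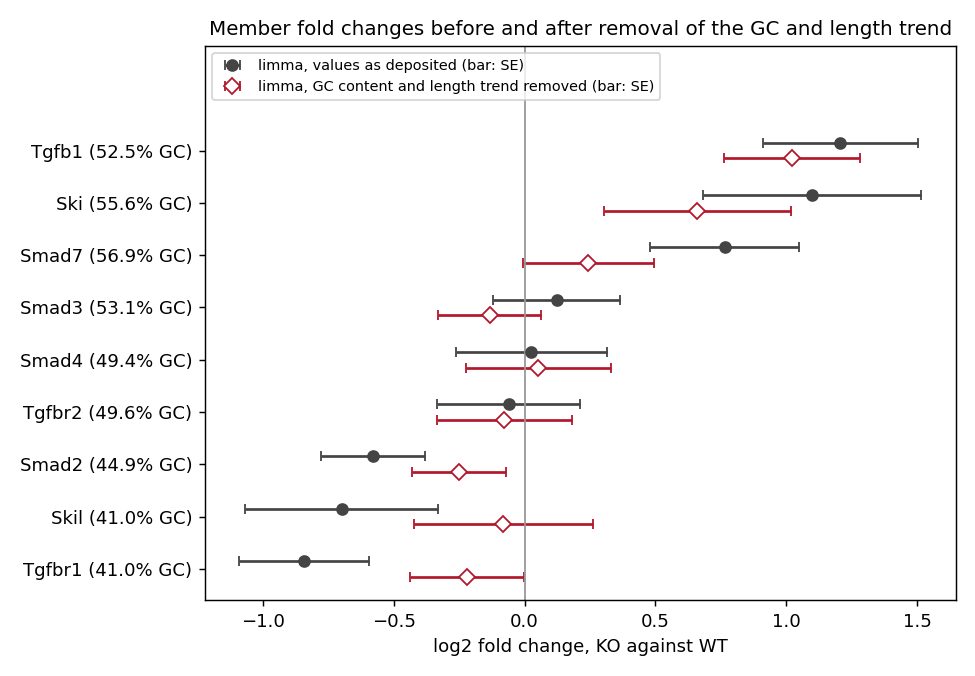
log2 fold change of KO against WT (x) for the 9 genes with the GC content of their transcripts (y), by limma on the values as deposited (filled circles) and after removal of the GC content and length trend (open diamonds), with bars of 1 SE. Tgfb1 goes from 1.21 to 1.02, whereas Tgfbr1 goes from -0.84 to -0.22 and Skil from -0.70 to -0.08.

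Levels can be compared between genes only per length. As normalized read count per kilobase of transcript, the mean WT level was 1493 for Tgfb1, 421.2 for Smad4, 183 for Smad2, 134 for Smad3, 124 for Tgfbr1, 111 for Tgfbr2, 55.8 for Smad7, 33.0 for Skil and 29.2 for Ski. The WT ranges of Smad3 and Tgfbr1 overlapped, as did those of Tgfbr1 and Tgfbr2 and those of Skil and Ski, and the order of these neighbours is not resolved. In KO the order by mean was Tgfb1, Smad4, Smad3, Smad2, Tgfbr2, Smad7, Tgfbr1, Ski and Skil, but the KO values of Smad3 and Smad2 overlapped, as did those of Smad2 and Tgfbr2, of Tgfbr2 and Smad7, and of Tgfbr1 and Ski, so these neighbours are not resolved. The inhibitor Smad7 had a lower level per kilobase than the type I receptor in all 3 WT libraries (51.7 to 62.3 against 108.7 to 151.6), and a higher one in both KO libraries (80.5 and 111.5 against 73.0 and 63.3). With the GC content and length trend removed, ratios were set on the uncorrected WT mean ratio. That of Smad7 to Tgfbr1 was then 0.402 to 0.515 in WT, 0.639 in KO 2 and 0.617 in KO 3. On that basis Smad7 stayed below Tgfbr1 in both KO libraries, but the order itself rests on the uncorrected WT level. The ratio of Smad7 to Smad2 per kilobase was 0.254 to 0.341 in WT, 0.609 in KO 2 and 0.996 in KO 3. With the trend removed the Smad7 to Smad2 ratio was 0.266 to 0.358 in WT, 0.399 in KO 2 and 0.466 in KO 3, and all levels and other values in this paragraph were taken before that step.

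Beyond the members, 101 further genes of the pathway were listed by role, of which 98 were among the measured symbols and 81 passed the filter. The other 3 symbols were not analysed here. limma called none of the 81, with 20 at an unadjusted p under 0.05 beside 27.8% of all tested genes, edgeR called none, and DESeq2 called 5 higher (Ltbp3, Eng, Cdkn1a, Myc and Acvr2b) and 8 lower (Usp15, Usp9x, Wwp1, Sp1, Sin3a, Ncor1, Bhlhe40 and Map2k4), against 9.54% and 9.81% of all genes. Over the 81 genes, limma called 18 without KO 2, where 26.6% of all tested genes were called, and none without KO 3, where the lone KO library is again assumed to vary as WT does. DESeq2 with the GC content and length trend removed called 2 of the 13, Acvr2b and Bhlhe40, and also the target gene Cdkn1b. Cdkn1b was at 1.10 in that fit (DESeq2 adjusted p = 0.0466, against 0.204 before removal of the trend). Over all 11420 genes with an adjusted p, that fit called 364 higher and 297 lower. Both KO values were above all WT values for 16 and below for 20, with the shares over all tested genes at 23.9% and 23.2%, and the median log2 fold change was 0.02, as over all tested genes. The genes described in what follows are those with the largest log2 fold changes of each role among genes whose groups did not overlap.

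Ligands and the proteins that fold, store and release them had a median log2 fold change of 0.41 over 11 tested genes, with 3 above all WT libraries in both KO libraries and none below. The list's median difference from the WT mean was 0.34 in KO 2 and 0.38 in KO 3, within the WT range of -0.44 to 0.57. Ltbp3, a latent TGF-beta binding protein gene, had a log2 fold change of 1.25 (SE 0.46, limma adjusted p = 0.129, DESeq2 adjusted p = 0.0155), with 383.9 to 621.4 in WT, 685.6 in KO 2 and 2229 in KO 3. After removal of the trend Ltbp3 was at 0.61 (DESeq2 adjusted p = 0.261) and its groups overlapped, and its limma adjusted p was 0.00399 without KO 2 and 0.589 without KO 3. Furin, the protease gene that matures the TGF-beta precursor, was at 0.41 (limma adjusted p = 0.196), and Nrros, which anchors latent TGF-beta on myeloid cells, was at 0.28 (adjusted p = 0.317), and the groups of both overlapped after removal of the trend. The co-receptors and other receptors had 4 tested genes with a median of 0.16, of which Eng, the endoglin gene, had both KO values above all WT values (1635 to 1864 in WT, 2202 in KO 2 and 3801 in KO 3; log2 fold change 0.73 with SE 0.24, limma adjusted p = 0.11, DESeq2 adjusted p = 0.0287). Eng was at 0.18 after removal of the trend (DESeq2 adjusted p = 0.601), where its groups overlapped, and its limma adjusted p was 0.00638 without KO 2 and 0.461 without KO 3. The 3 other SMADs had a median of 0.24, or 0.11 with the trend removed. Among them, Smad5 of the BMP branch had both KO values below all WT values (log2 fold change -0.56, limma adjusted p = 0.187). After removal of the trend its groups overlapped (-0.20).

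The 19 regulators of SMADs and receptors had a median of -0.24, with 2 above all WT libraries and 6 below. Their median was -0.12 with the trend removed. Usp15, a deubiquitinase gene of the receptor and SMAD complex, read 3780, 3410 and 4529 in WT 1 to WT 3 and 2275 and 1374 in KO 2 and KO 3, a log2 fold change of -1.13 (SE 0.24, limma adjusted p = 0.0815, DESeq2 adjusted p = 0.00205). Usp15 has 42.3% GC and stood at -0.63 (limma adjusted p = 0.213, DESeq2 adjusted p = 0.0934) after removal of the trend. Its limma adjusted p was 0.00375 without KO 2 and 0.21 without KO 3. Pmepa1, an inhibitor gene that SMADs induce, was at 2.51 (SE 1.05, limma adjusted p = 0.165) with 122 in KO 2, where the adipocyte markers were high, and 4.16 to 16.7 in the other 4 libraries. Without KO 2 it was at 1.11, and its groups overlapped after removal of the trend. Dab2, an endocytic adaptor gene, was at -1.77 (SE 0.85, limma adjusted p = 0.211) from 14.2 to 87.4 in WT to 11.3 and 10.6 in KO, and ran from -2.48 to -1.21 without 1 WT library.

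The 13 nuclear partners and corepressors had a median of -0.07, with 1 above all WT libraries and 4 below. Sp1, which encodes a factor that binds GC boxes, read 755.0 to 867.5 in WT, 549.9 in KO 2 and 343.2 in KO 3 (log2 fold change -0.89 with SE 0.26, limma adjusted p = 0.0921, DESeq2 adjusted p = 0.025). Sp1, with 43.6% GC, was at -0.46 after removal of the trend (DESeq2 adjusted p = 0.294), and had a limma adjusted p of 0.00992 without KO 2 and 0.334 without KO 3. The corepressor gene Sin3a was at -0.64 (limma adjusted p = 0.105, DESeq2 adjusted p = 0.0349, or 0.0907 with the trend removed), having read 1293 to 1665 in WT, 1066 in KO 2 and 890.0 in KO 3. Its limma adjusted p was 0.0402 without KO 2 and 0.352 without KO 3. Tgif2, a SMAD corepressor gene, was at 0.77 (limma adjusted p = 0.13), or 0.40 after removal of the trend.

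Transcriptional targets had a median of 0.38 over 11 tested genes, with 4 above all WT libraries and 3 below. The median was 0.19 with the trend removed. Cdkn1a, a cell cycle inhibitor gene, read 67.4 to 155.4 in WT, 387.5 in KO 2 and 157.9 in KO 3 (log2 fold change 1.46 with SE 0.53, limma adjusted p = 0.128, DESeq2 adjusted p = 0.0499). KO 3 was barely above WT 2, the groups overlapped after removal of the trend (DESeq2 adjusted p = 0.198), and the limma adjusted p of Cdkn1a was 0.327 without KO 2 and 0.188 without KO 3. Nedd9, a scaffold gene of integrin signalling, was at -1.12 (SE 0.39, limma adjusted p = 0.119), with 1094 in KO 2 next to 1149 in WT 1 and 396.4 in KO 3. Without KO 3 it was at -0.39, and its groups overlapped after removal of the trend. Spsb1, an adaptor gene, was at 2.28 (SE 1.39, limma adjusted p = 0.306), with 15.8, 26.9 and 0 in WT 1 to WT 3 and 31.9 and 42.5 in KO 2 and KO 3. Without WT 3, Spsb1 was at 0.80, and edgeR gave 1.35 with all libraries.

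The activin and BMP branch had a median of 0.10 over 13 tested genes, with 4 above all WT libraries and 2 below. With the trend removed its median was -0.02. Acvr2b, an activin type II receptor gene, read 71.6, 44.3 and 38.6 in WT 1 to WT 3 and 161.4 and 235.4 in KO 2 and KO 3. Both KO libraries were above the WT range. Acvr2b had a log2 fold change of 1.95 (SE 0.46, limma adjusted p = 0.0815, DESeq2 adjusted p = 0.0031), and after removal of the trend it was 1.62 (limma adjusted p = 0.185). DESeq2 with the trend removed gave Acvr2b an adjusted p of 0.0306, and limma gave 0.0231 without KO 2 and 0.258 without KO 3. Bmpr2, the BMP type II receptor gene, was at -1.51 (SE 0.57, limma adjusted p = 0.136), or -0.92 with overlapping groups after removal of the trend. Inha, an inhibin subunit gene, was at 2.98 (SE 1.36, limma adjusted p = 0.193) with 30.0, 11.3 and 0 in WT 1 to WT 3 and 46.3 and 68.3 in KO 2 and KO 3. Inha was at 1.55 without WT 3 and 4.03 without WT 1, and edgeR gave 2.02 with all libraries. The 7 genes of kinases and their adaptors that TGF-beta receptors use beside the SMADs had a median of -0.37, with 1 above all WT libraries and 4 below, among them Map2k4 at -0.85 (limma adjusted p = 0.092, DESeq2 adjusted p = 0.0275, 0.199 with the trend removed), Traf6, a ubiquitin ligase gene, at -0.41 (limma adjusted p = 0.237) and Map3k7, the TAK1 gene, at -0.40 (limma adjusted p = 0.27). After removal of the trend Traf6 was at -0.13 and Map3k7 at -0.07, and the groups of both overlapped. Map2k4 read 1995 to 2357 in WT, 1537 in KO 2 and 899.1 in KO 3, was at -0.50 after removal of the trend, and had a limma adjusted p of 0.0058 without KO 2 and 0.345 without KO 3.

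**Figure D4:**
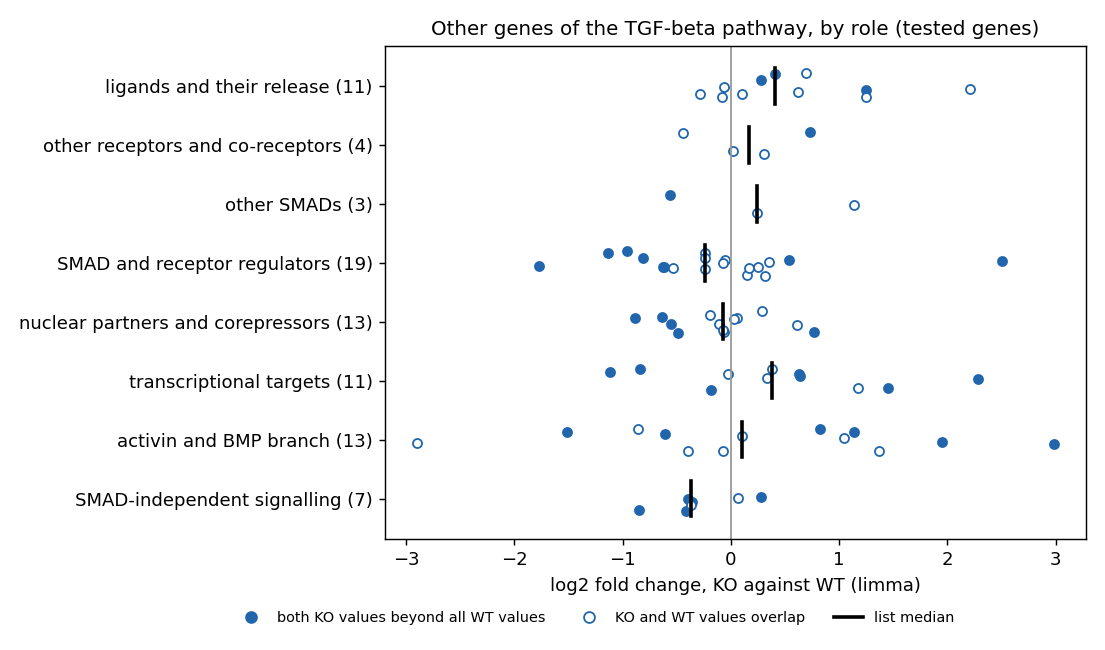
log2 fold change of KO against WT by limma (x) for the 81 tested pathway genes beside the members, by role with the number tested (y), as filled points where both KO values lie beyond all WT values and open points where they overlap, with list medians as black lines. Medians run from -0.37 in SMAD-independent signalling (-0.14 with the trend removed) to 0.41 in the ligands and their release, where the KO libraries lie within the WT range, and single genes of each role lie on both sides of 0.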

How the data were processed

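HSC RNA of 5 libraries had been made into cDNA with the SMART-Seq v4 kit. The authors deposited a table of normalized signal, that is, reads per gene scaled by 1 factor per library; per the submitters' processing notes STAR, featureCounts, DESeq2 and the mm10 build were used, and versions, annotation and use of strand were not given in the sources used here. Near-identical gene copies could therefore share reads. A second table holds the authors' own KO against WT statistics (fold change, p and adjusted p) and was not used. Whole reads were recovered for 100% of values (tolerance 0.01 read), and all library pairs differed by more than sampling noise (lowest chi-square over its degrees of freedom 32.6).

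The deposited signal was tested as log2(value + 1) with limma 3.58.1 (eBayes with a mean-variance trend, no covariate) in R 4.3.3, over the 13661 genes at 10 or more in at least 2 libraries. Fold changes are on this scale, where those of low genes depend on the pseudocount and a library at 0 can make them larger or smaller than the ratio of means. Adjusted p-values are Benjamini-Hochberg over all genes tested, called under 0.05 with no fold limit. DESeq2 1.42.0 and edgeR 4.0.16 (quasi-likelihood) were run on recovered reads. Transcript length and GC content came from GENCODE M21 (13517 of 13661 genes, 98.9%). Other settings numbered 17 in all, of which 3 were chosen after seeing the data: DESeq2 with the GC content and length trend, and that trend removed without KO 2 or without KO 3. The limma script was checked on simulated counts without a GC content trend or a library set apart. That check does not show how limma performs on libraries that differ as these do.

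The members and all gene lists were chosen with earlier results of these data known. Named genes were every member, Syncrip, the 3 profiles nearest to that of the member with the largest fold change, and up to 3 genes of each pathway list, by size of fold change, among those called or with both KO values beyond all WT values. Marker lists were those of the sort gate, megakaryocytes and platelets, neutrophils and myeloid cells, erythroid cells, B and T cells, adipocytes, and stroma and endothelium. Erythroid markers took 0.14% to 0.198% of reads in WT and 0.0991% to 0.146% in KO, B and T cell markers 0.00243% to 0.00315% and 0.00257% to 0.00269%, and stroma and endothelium 0.0046% to 0.0153% and 0.00475% to 0.00572%. Markers that the gate selects for took 0.0673% to 0.0871% in WT and 0.0588% to 0.0668% in KO, and those it selects against 0.00908% to 0.0148% and 0.00234% to 0.00697%.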

Additional observations from a re-analysis of the deposited data

How the results depend on the processing

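Tgfb1, Ski and Smad7 were higher and Tgfbr1 and Smad2 lower in KO under all 17 alternatives, but their calls depended on the tool and on single libraries. Depth limits low counts, such as the 65 reads of Skil in KO 3. Counts past the threshold were as follows, and the cause of each shift was not tested. Over all genes, 1 was called in the main comparison, 2 with a pseudocount of 10, 0 without the filter on low values (3963 at an unadjusted p under 0.05), 2 by edgeR, 2290 by DESeq2 and 0 after removal of the GC content and length trend (2329 at an unadjusted p under 0.05). Leaving out 1 library gave 0 to 3560 genes, 0 to 6 members, 0 to 18 pathway genes and a member median of -0.25 to 0.39; the high counts came without KO 2, and without KO 3 there were 11 genes. DESeq2 called 3 members and 13 pathway genes. Of the alternatives chosen after seeing the data, DESeq2 with the trend removed called 661 genes, 1 member (Tgfb1) and 3 pathway genes; limma with the trend removed called 1996 genes, 1 member and 11 pathway genes without KO 2 (member median 0.20), and 14 genes and no member without KO 3 (member median -0.18).

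Syncrip kept its direction throughout, from -2.55 to -2.31 without 1 library. It lost its call without the filter (-2.43, limma adjusted p = 0.0503), with the trend removed (-1.53), with the trend removed and a replicate block (-1.48), and without any 1 WT library (adjusted p from 0.164 to 0.21).

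Reversals were limited to members whose groups overlapped, and to Skil. Smad3 was at -0.13 with the trend removed, -0.17 with the trend removed and the replicate block, -0.14 to 0.39 without 1 library (lowest without KO 3), -0.13 by DESeq2 with the trend removed and -0.28 with the trend removed and without KO 3. Leaving out 1 library, Smad4 ran from -0.46 (without KO 3) to 0.51 (without KO 2), with -0.09 without WT 3, and was at -0.43 with the trend removed and without KO 3. Tgfbr2 ran from -0.41 (without KO 3) to 0.29 (without KO 2), with 0.08 without WT 1, and was at 0.20 with the trend removed and without KO 2, and Skil at 0.22 with the trend removed and without KO 3.

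WT and KO share the replicate numbers 2 and 3, which no label ties to a shared animal or day. Deviations from group means correlated at -0.06 between WT 2 and KO 2 and at -0.18 between WT 3 and KO 3. With 2 KO libraries their deviations mirror each other, so these values cannot decide whether libraries were paired. The main comparison took no pairs, and a replicate block was fitted as an alternative. The replicate block gave 6 genes and no member past the threshold, with 1 member at an unadjusted p under 0.05 beside 15.5% of all genes, or 4 genes with the trend removed. It moved Tgfbr2 to 0.079, or to 0.10 with the trend removed, and Tgfb1 to 1.12 (limma adjusted p = 0.157).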

Other observations

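Some pathway genes outside the naming rule, chosen here after their values were seen, were high in a single library. Smad6, which encodes the inhibitory SMAD of the BMP branch, read 81.6, 53.8 and 55.7 in WT 1 to WT 3, 42.1 in KO 2 and 449.5 in KO 3. Cdkn1c, a cell cycle inhibitor gene known in quiescent HSCs, read 243.9, 211.8 and 69.4 in WT 1 to WT 3, 194.3 in KO 2 and 616.6 in KO 3. Acvr1c, an activin type I receptor gene known in fat cells, was at 35.0 in KO 2, where the adipocyte markers were high, and at 0 in the other 4 libraries. Bmp6, a BMP ligand gene, was at 63.7 in KO 2 and at 0 in the other 4. In each case 1 KO library was above the WT range and the other was within or below it.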
